A study of Rattus norvegicus with 12 samples.

Results

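The genes described here encode the axon guidance ligands and receptors of the Slit and Robo, semaphorin, plexin and neuropilin, ephrin and Eph, and netrin families. The families were chosen with earlier results of these data known. Members were then set by name alone, with no measured value. Every probe whose gene name in the scanner files belongs to one of these families was taken. That gave 95 of the 41012 non-control probes, under 65 gene names. Of these, 44 probes for 38 genes had green or red signal well above background on every array of some time point and were kept, as were 20630 probes in all. A gene was represented by its brightest kept probe. The pattern of names also matched Unc50, a membrane protein outside the UNC5 netrin receptor family, and Unc5cl, a related death-domain protein. Unc50 is counted in the 38 genes but in neither the ligands nor the receptors.

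Guidance ligands steer the tip of a growing axon, the growth cone, by attracting or repelling it. Slits bind Robo receptors and mostly repel. Secreted semaphorins act through a neuropilin that binds them and a plexin that signals, and membrane-bound semaphorins bind plexins directly. Ephrins and Eph receptors both sit in the membrane, so they signal where cells touch. Netrins attract through Dcc and repel through UNC5 receptors. Cyclic AMP, which forskolin raises by activating adenylyl cyclase, is known to shift how a growth cone reads several of these cues.

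F11 cells are hybrids of rat sensory neurons, from the dorsal root ganglion, and a mouse neuroblastoma line. They were held for 3 h in DMEM with 0.5% fetal calf serum. They were then given 10 uM forskolin for 2, 4, 24 or 48 h, with 3 samples at each time. Each forskolin sample carried the green dye Cy3 and was hybridised on a 2-colour rat array with a red Cy5 reference, F11 cells kept 3 h in the same medium without forskolin. All groups are thus 1 cell line, no untreated sample is matched to the forskolin times, and the dyes were never swapped. A value below is log2 of green over red, so a positive number means more signal in forskolin. The authors' deposited values run the other way, red over green. A gene's own dye bias and any change with time in low-serum medium stay in each value against the reference and cannot be told apart from forskolin there. The dye bias cancels in a difference between 2 time points. Nothing in the labels says that the 3 samples of a time came from separate cultures, so p-values reflect only how far these samples differ, which may be technical. The reference counts as 1 control sample and gives no spread of its own.

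Between 19889 and 21973 spots of an array were well above background in green and between 19504 and 23285 in red. Replicate arrays correlated at r = 0.606 to 0.792 at 2 h and at 0.843 to 0.936 at the later times, across all kept probes. Array position on the slide followed the time point, so the 2 cannot be told apart. Of 15 sensory neuron markers 13 were kept, among them Prph, Tubb3, Scn9a, Scn10a and Tac1, while Pou4f1 and Trpv1 were not. Of the 7 glial, 5 fibroblast, 4 leukocyte and 4 endothelial markers, 3, 3, 3 and 2 were kept. The kept markers of these other cells lay between -0.59 and 0.41 at all times.

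The probes below are shown because the results turn on them: Slit2 gave the largest rise, Ephb6 rose at all of the last 3 times, and the other 3 genes each had a second probe that read differently. Coordinates are those of the array's annotation, on rat build rn3. Exon annotation of that build was not used here.
Slit2: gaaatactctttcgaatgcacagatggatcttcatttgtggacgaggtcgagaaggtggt
Ephb6: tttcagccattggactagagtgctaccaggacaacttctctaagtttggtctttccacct
Plxnc1: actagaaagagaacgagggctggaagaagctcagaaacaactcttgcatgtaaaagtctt
Efna3: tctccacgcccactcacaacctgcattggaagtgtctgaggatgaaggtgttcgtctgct
Sema4g: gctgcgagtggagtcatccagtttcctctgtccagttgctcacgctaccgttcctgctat
The Slit2 probe lies at chr14:67550743-67550802, minus strand, and the Ephb6 probe at chr4:69607470-69607529, plus strand. The Plxnc1 probe lies at chr7:32007479-32007538, minus strand, and the Sema4g probe at chr1:250324594-250324653, plus strand. The Efna3 probe lies at chr2:181448978-181449382, minus strand. Its 60 bases cover 405 bases of the genome, so it crosses a splice junction. Only probes open in at least 1 reading frame were printed. The brighter Plxnc1 probe, which stands for the gene, is open in 0 frames and is not shown. No kept probe matched a kept probe of another family gene at more than 28 of its 60 bases in an ungapped alignment. The arrays carry rat sequence, and how far mouse transcripts of the hybrid bound was not tested.

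Among the Slits, secreted ligands of the Robo receptors, one showed a short rise and another a lasting fall. Slit2 read 0.00, -0.12 and 0.10 on the 2 h arrays and 1.57, 1.62 and 1.63 on the 4 h arrays. It was back at -0.05, 0.02 and -0.01 at 24 h and read 0.10, 0.35 and 0.44 at 48 h. The 4 h arrays stood apart from all others without overlap. Slit2 was 3.04-fold above the reference at 4 h (log2 1.60 ± 0.03, SD, n = 3, limma adjusted p = 1.2e-10). The step from 2 to 4 h was 1.61 ± 0.08 (SE, limma adjusted p = 3.1e-08), and the step from 4 to 24 h was -1.62 ± 0.08 (limma adjusted p = 4.1e-09). At 48 h it was above the reference again, by 0.30 ± 0.18 (SD, n = 3, limma adjusted p = 0.00061), or by 0.06 without the loess correction for brightness. These Slit2 values come from a single probe. Another Slit2 probe was well above background on 0 arrays in either channel, 4 h included. A further Slit2 probe, outside the choice by name, was not kept either.

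Slit3 went the other way. It read 0.16, 0.12 and 0.08 at 2 h, then -0.44, -0.46 and -0.46 at 4 h. The 24 h arrays read -1.20, -1.16 and -1.27, and the 48 h arrays -1.49, -1.46 and -1.45. No 2 time points overlapped, and each was lower than the one before. Slit3 was 2.31-fold below the reference at 24 h (log2 -1.21 ± 0.06, SD, n = 3, limma adjusted p = 1.8e-11). At 48 h it was 2.76-fold below (log2 -1.47 ± 0.02, SD, n = 3, limma adjusted p = 2.1e-12). All 3 steps were called, at -0.57, -0.76 and -0.26 (SE 0.05, limma adjusted p = 6.7e-06, 8.2e-08 and 0.0049). The small excess over the reference at 2 h (0.12, limma adjusted p = 0.028) became -0.36 without loess, with arrays only centred on their median.

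Slit1 moved little. Its brighter probe read -0.12 ± 0.05 at 4 h and 0.13 ± 0.04 at 48 h (SD, n = 3), and its step from 4 to 24 h was 0.22 ± 0.06 (SE, limma adjusted p = 0.0097). Without loess the 48 h value was -0.11. Its other probe was above background on few arrays before 48 h, where it read 0.19 ± 0.01.

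The Robos, single-pass receptors for Slits, showed no change of that size. Robo2 read -0.19 ± 0.09 at 4 h and -0.22 ± 0.15 at 24 h (SD, n = 3, limma adjusted p = 0.025 and 0.0094), but 0.03 and -0.07 without loess. It then stepped up by 0.33 ± 0.09 to 48 h (SE, limma adjusted p = 0.027). Robo1 lay between -0.05 and 0.05 at every time and passed no test. Robo4, best known from endothelium, passed no test against the reference. At 24 h its forskolin channel was above background on 0 of 3 arrays. The reference was there 1.08-fold brighter as measured, a difference that was not called. Its step from 4 to 24 h was called, at -0.22 ± 0.07 (SE, limma adjusted p = 0.023). Robo3 was not kept.

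**Figure D1:**
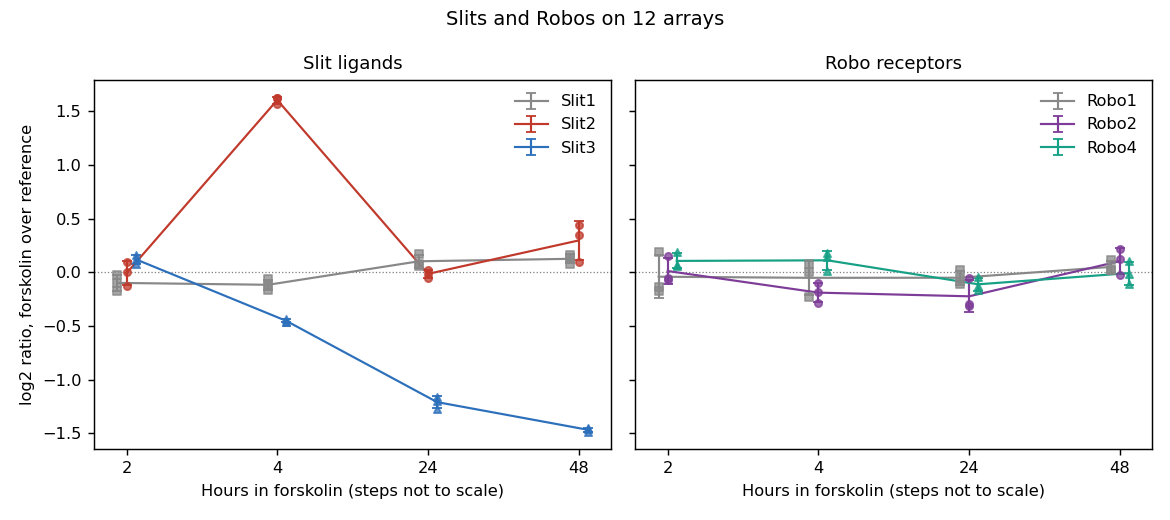
log2 ratio of forskolin over reference (y axis) at 2, 4, 24 and 48 h (x axis, not to scale) for the Slits on the left and the kept Robos on the right. Points are single arrays, lines join time means and bars are the SD over 3 arrays. Slit2 stands at 1.57 to 1.63 at 4 h only, Slit3 drops from 0.12 to -1.47, and the Robos stay between -0.32 and 0.21.

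Semaphorins were the largest family, with 12 of 20 genes kept. Of the 12, 1 rose and 2 fell at 2 h, 1 and 1 at 4 h, 2 and 2 at 24 h, and 5 and 2 at 48 h. The share of all kept probes called also grew with time, from 27.3% at 2 h to 55.9% at 48 h. Sema6d, a membrane-bound ligand of A-type plexins, changed direction between times. It read 0.26, 0.13 and 0.15 at 2 h and 0.43, 0.36 and 0.25 at 4 h, then -0.23, -0.14 and -0.30 at 24 h. At 48 h it read 0.38, 0.43 and 0.42. The 24 h arrays lay below all others, and without loess the 2 h mean was -0.02. Sema6d stepped down by 0.57 from 4 to 24 h (limma adjusted p = 8.9e-06) and up by 0.63 from 24 to 48 h (limma adjusted p = 2.2e-05), each with an SE of 0.06.

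Sema6b, of the same class, rose and stayed up. It read 0.58, 0.45 and 0.38 at 24 h and 0.41, 0.48 and 0.43 at 48 h. No earlier array was above 0.07. The step from 4 to 24 h was 0.49 ± 0.07 (SE, limma adjusted p = 4.7e-05). Sema3f, a secreted repellent that binds neuropilin-2, read 0.23, 0.50 and 0.52 at 24 h (mean 0.42 ± 0.16, SD, limma adjusted p = 0.00023). At 48 h it read 0.16, 0.24 and -0.09, so the rise was no longer called (limma adjusted p = 0.23). Sema6c was the one semaphorin called below the reference at all 4 times, between -0.25 and -0.19 (limma adjusted p = 0.00099 to 0.015). No difference between its time points was called (limma F test, adjusted p = 0.81).

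The other calls among semaphorins were small. At 48 h Sema4f was above the reference by 0.27, Sema4c by 0.24 and Sema3b by 0.17, and Sema3c was below it by 0.15. In Sema4c and Sema3b the reference channel was not well above background on any 48 h array. Forskolin was there 1.18-fold and 1.13-fold brighter as measured. Raising the reference to the lowest signal counted as well above background left these values unchanged, so they are not firm minimum differences. For Sema3c it was the forskolin channel that was not above background. The reference, above background on 1 of 3 arrays, was 1.09-fold brighter with forskolin raised in that way. Without loess Sema3c read 0.37 there. Sema3g, Sema5b and Sema7a, the last a GPI-anchored ligand, passed no test against the reference. Sema3a, Sema3d, Sema3e, Sema4a, Sema4b, Sema4d, Sema5a and Sema6a were not kept.

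Plexins, the signalling receptors of semaphorins, held 2 of the brightest guidance probes. Plxnc1, the receptor of Sema7a, read -0.15, -0.20 and -0.13 at 2 h and -0.51, -0.47 and -0.52 at 4 h. At 24 h it read 0.63, 0.66 and 0.65, and at 48 h 0.33, 0.44 and 0.42. It lay below the reference on all early arrays and above it on all late ones. The step from 4 to 24 h was 1.15 ± 0.05 (SE, limma adjusted p = 1.9e-09). Without loess the values against the reference at 24 and 48 h were 0.02 and -0.25, while the step kept its size (1.10).

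Plxnd1, which binds Sema3e, was low at every time. It read -0.30, -0.16 and -0.17 at 2 h and -0.62, -0.69 and -0.66 at 4 h. It read -0.37, -0.55 and -0.51 at 24 h and -0.39, -0.34 and -0.24 at 48 h. The 4 h arrays lay below all others, at 1.58-fold under the reference (log2 -0.66 ± 0.03, SD, n = 3, limma adjusted p = 9.4e-08). The partial return from 4 to 24 h was 0.18 ± 0.07 (SE, limma adjusted p = 0.0498, just inside the threshold).

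The remaining plexins were dim. Plxnb2, a receptor of class 4 semaphorins, was above the reference by 0.18 at 4 h and 0.24 at 48 h, and Plxna3 by 0.19 at 48 h. At 48 h the reference was not well above background for either, and forskolin was 1.18-fold and 1.14-fold brighter as measured. Plxnb1 passed no test. Nrp1, the co-receptor for secreted semaphorins, read 0.26, 0.36 and 0.22 at 48 h and stepped up by 0.33 ± 0.07 from 24 h (SE, limma adjusted p = 0.005). Nrp2, Plxna2, Plxna4 and Plxnb3 were not kept.

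Of the 4 kept ephrins 2 were called higher at 24 h and at 48 h, where 24.2% and 26.5% of all kept probes were. Efnb1, a transmembrane ligand of EphB receptors, read 0.02, 0.11 and -0.06 at 2 h and -0.21, -0.30 and -0.31 at 4 h. It read 0.45, 0.39 and 0.33 at 24 h and 0.55, 0.55 and 0.58 at 48 h. No 2 time points overlapped. Its step from 4 to 24 h was 0.66 ± 0.06 (SE, limma adjusted p = 1.1e-06). Efna3, a GPI-anchored ligand of EphA receptors, read 0.35, 0.30 and 0.12 at 24 h and 0.60, 0.72 and 0.51 at 48 h. The step between those times was 0.35 ± 0.08 (SE, limma adjusted p = 0.013). The other kept Efna3 probe read -0.19 and -0.18 at those times and was not called. Efna2 and Efna5 passed no test, and Efna1, Efna4, Efnb2 and Efnb3 were not kept.

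Of 11 Eph receptors, the tyrosine kinase receptors of ephrins, 4 were kept. Ephb6, whose kinase domain is inactive, read 0.07, 0.19 and 0.01 at 2 h and 0.37, 0.24 and 0.49 at 4 h. It read 0.61, 0.67 and 0.55 at 24 h and 0.84, 0.85 and 0.56 at 48 h. Its means rose from one time to the next, and the 24 and 48 h arrays overlapped. It was 1.68-fold above the reference at 48 h (log2 0.75 ± 0.17, SD, n = 3, limma adjusted p = 1.5e-07). The steps to 4 h and to 24 h were 0.28 and 0.24 (SE 0.09, limma adjusted p = 0.0497 and 0.0414), both close to the threshold. Another Ephb6 probe was well above background on 0 arrays in either channel. Epha1 dipped at separate times: it read -0.43, -0.48 and -0.30 at 4 h and -0.67, -0.39 and -0.27 at 48 h, with -0.11, 0.12 and 0.00 between. Its other probe also stepped up from 4 to 24 h, by 0.52 ± 0.13 (SE, limma adjusted p = 0.0053), but was not called at 48 h.

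Epha8 was above the reference by 0.16, 0.20 and 0.15 at 4, 24 and 48 h, with no difference called between times. Ephb3 was above it by 0.20 at 4 h. Epha2, Epha3, Epha5, Epha6, Epha7, Ephb1 and Ephb2 were not kept. Epha4 stands on the array under an older locus name that the choice by name missed, and it was looked up through RefSeq after the fact. Its 1 kept probe of 3 read 0.70 ± 0.13 at 4 h (SD, n = 3, limma adjusted p = 6.1e-07) and 0.06 ± 0.07 at 24 h. At 48 h Epha4 was again above the reference, by 0.29 ± 0.15 (SD, n = 3, limma adjusted p = 0.0011). It is not counted among the 38 genes.

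Netrin itself, Ntn1, and its attractive receptor Dcc were not kept. The kept netrin was Ntn2l, now named Ntn3, at -0.26 ± 0.06 and -0.21 ± 0.08 at 4 and 24 h (SD, n = 3, limma adjusted p = 0.00063 and 0.0031). Unc5c, a repellent netrin receptor and the brightest of its family, fell sharply at 4 h. It read -0.03, -0.28 and -0.28 at 2 h, -0.81, -1.03 and -0.93 at 4 h, -0.30, -0.40 and -0.27 at 24 h, and -0.25, -0.14 and -0.04 at 48 h. The 4 h arrays did not overlap with any other. It was 1.89-fold below the reference there (log2 -0.92 ± 0.11, SD, n = 3, limma adjusted p = 3.1e-08). The steps to 4 h and from 4 to 24 h were -0.73 and 0.60 (SE 0.08, limma adjusted p = 5.0e-05 and 6.1e-05).

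The other UNC5 receptors moved less. Unc5b was above the reference by 0.24 at 2 h and 0.17 at 4 h. The 4 h arrays read 0.21, -0.005 and 0.30, and with the scanner's own processed signals it was called at neither time. Unc5d was below it by 0.22 at 24 h on its brighter probe, while its other probe read 0.01 and the first read 0.16 without loess. On the brighter Unc5d probe the forskolin channel was not above background at 24 h, and the reference was 1.17-fold brighter as measured. Unc5a passed no test. Unc50, the gene outside the families, was above the reference by 0.56 at 24 h and 0.45 at 48 h, but read -0.07 and -0.20 without loess. Unc5cl was not kept.

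**Figure D2:**
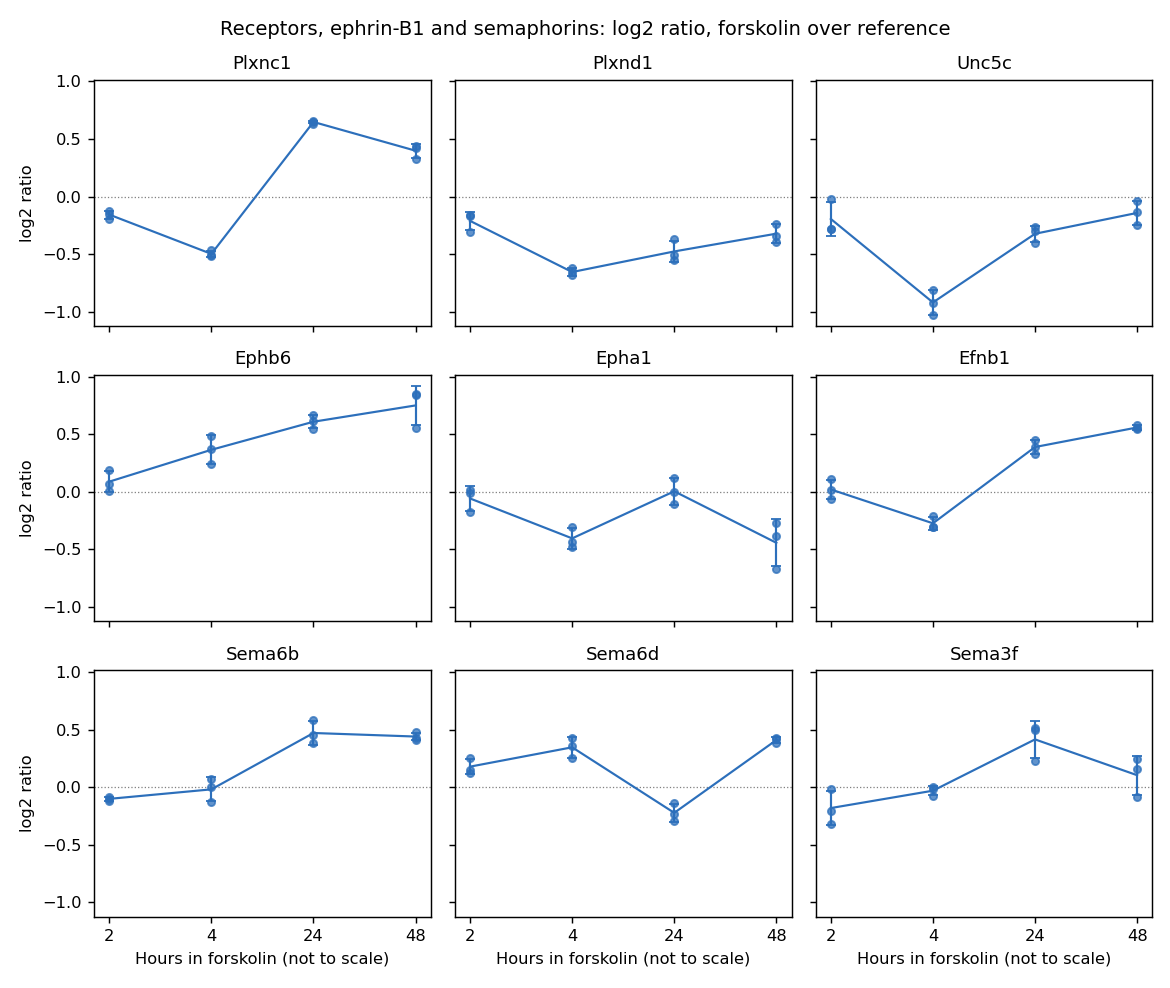
log2 ratio of forskolin over reference (y axis) by hours in forskolin (x axis, not to scale) for 9 receptors and ligands. Points are single arrays and bars the SD over 3 arrays. Plxnc1 and Efnb1 cross from below to above the reference between 4 and 24 h, Unc5c is lowest at 4 h (mean -0.92), and Sema6d is below the reference at 24 h only.

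Most of these genes were dim, and the constant of 50 added before taking logs compresses such values. With that constant set to 0, Ephb6 read 1.42 at 48 h in place of 0.75, Efna3 0.95 in place of 0.61 and Efnb1 0.84 in place of 0.56. With the scanner's own processed signals, which differ in more than the constant, these 48 h values were 2.01, 1.09 and 0.95. Slit3 moved less, to -1.78 at 48 h, and Slit2 to 1.95 at 4 h. The directions were the same, and the sizes given for these genes elsewhere are the smaller ones.

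In each of the 6 genes with a second kept probe, the calls of the probes differed at 1 time or more. The gaps were widest in 3. The dimmer Plxnc1 probe, printed above, was not below the reference early, at 0.13 ± 0.09 and 0.12 ± 0.07 at 2 and 4 h. It rose to 0.69 ± 0.13 and 0.61 ± 0.13 at 24 and 48 h (SD, n = 3), so the late rise is on both probes and the early fall on one. The Efna3 probe across a splice junction, printed above, lay between -0.24 and -0.18 at all 4 times and did not rise, whereas the probe that stands for the gene reached 0.61. In Sema4g the brighter probe, printed above, stayed at -0.15 to -0.07 (0.17 at 2 h without loess), and the dimmer one reached 0.19 ± 0.03 at 24 h and 0.41 ± 0.11 at 48 h (SD, n = 3, limma adjusted p = 0.017 and 4.8e-05). The paired probes were nearly equal in brightness in Efna3 (mean log2 intensity 7.04 and 7.02) and Sema4g (6.72 and 6.70). The choice of the probe that stands for each of these genes thus rests on a small difference. Slit2, Ephb6, Sema6d, Plxnd1 and Robo2, among others, had further probes that were not kept, so their values rest on 1 probe each. Which transcripts each probe detects was not tested.

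**Figure D3:**
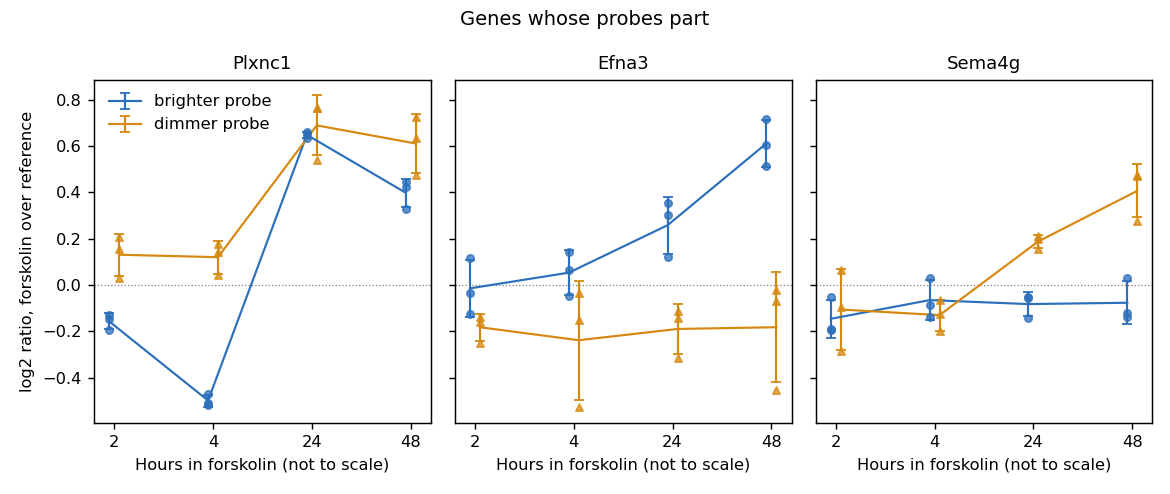
log2 ratio of forskolin over reference (y axis) by hours in forskolin (x axis, not to scale) for both kept probes of Plxnc1, Efna3 and Sema4g. Points are single arrays and bars the SD over 3 arrays. The Plxnc1 probes meet at 24 h (0.65 and 0.69) after parting at 4 h (-0.50 and 0.12), and the Efna3 and Sema4g probes part at 48 h.

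Over all 38 genes, 3 were called higher and 5 lower than the reference at 2 h, or 21.1%, where 27.3% of all kept probes were called (10.7% higher and 16.6% lower). At 4 h 7 were higher and 10 lower (44.7%, against 48.8% of all kept probes, 21% higher and 27.9% lower), and at 24 h 8 were higher and 8 lower (42.1%, against 51.8%, 24.2% higher and 27.6% lower). At 48 h 16 were higher and 5 lower (55.3%, against 55.9%). The share called was near or below that of all probes at every time. Of all kept probes 26.5% were called higher at 48 h and 29.4% lower. The 16 include Sema3b, Sema4c, Plxna3 and Plxnb2, which at 48 h cleared background with their forskolin signal on all 3 arrays and with their reference signal on none, so the filter kept them at that time through the higher channel. Among the 29 members with both channels well above background on all 3 arrays of some time, 12 were higher and 4 lower. The share of all probes passing that stricter filter is not given here, so this count cannot be set beside a background. Of the 20 kept ligands 9 were higher and 3 lower at 48 h, and of the 17 kept receptors 6 and 2. The median over the 38 genes was 0.10 at 48 h, where that of all kept probes was -0.02. The number called depends on the scaling: without loess it became 27 higher and 8 lower at 48 h, and 25 higher and 9 lower at 2 h. The share of all kept probes called without loess is not given here, so these counts show nothing particular to guidance genes. Calls at 2 h also rest on single arrays, since 4 members were called without replicate 2 of that time and 3 without replicate 3, in place of 8.

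Differences between successive times are free of dye bias. From 2 to 4 h 2 members stepped up and 6 down, where 14.7% of all kept probes were called, 5.59% up and 9.12% down. From 4 to 24 h 10 stepped up and 5 down (38% of all kept probes, 19.9% up and 18.1% down). From 24 to 48 h 6 stepped up and 3 down (13.8% of all kept probes, 7.25% up and 6.53% down). The 4 times differed in 20 of the 38 genes by the limma F test, and in 52.4% of all kept probes. Changes of at least 1 on the log2 scale against the reference were rare: Slit2 at 4 h, and Slit3 at 24 and at 48 h. No member changed that much at 2 h. Of all kept probes 0.305%, 0.829%, 1.5% and 2.46% did at 2, 4, 24 and 48 h.

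**Figure D4:**
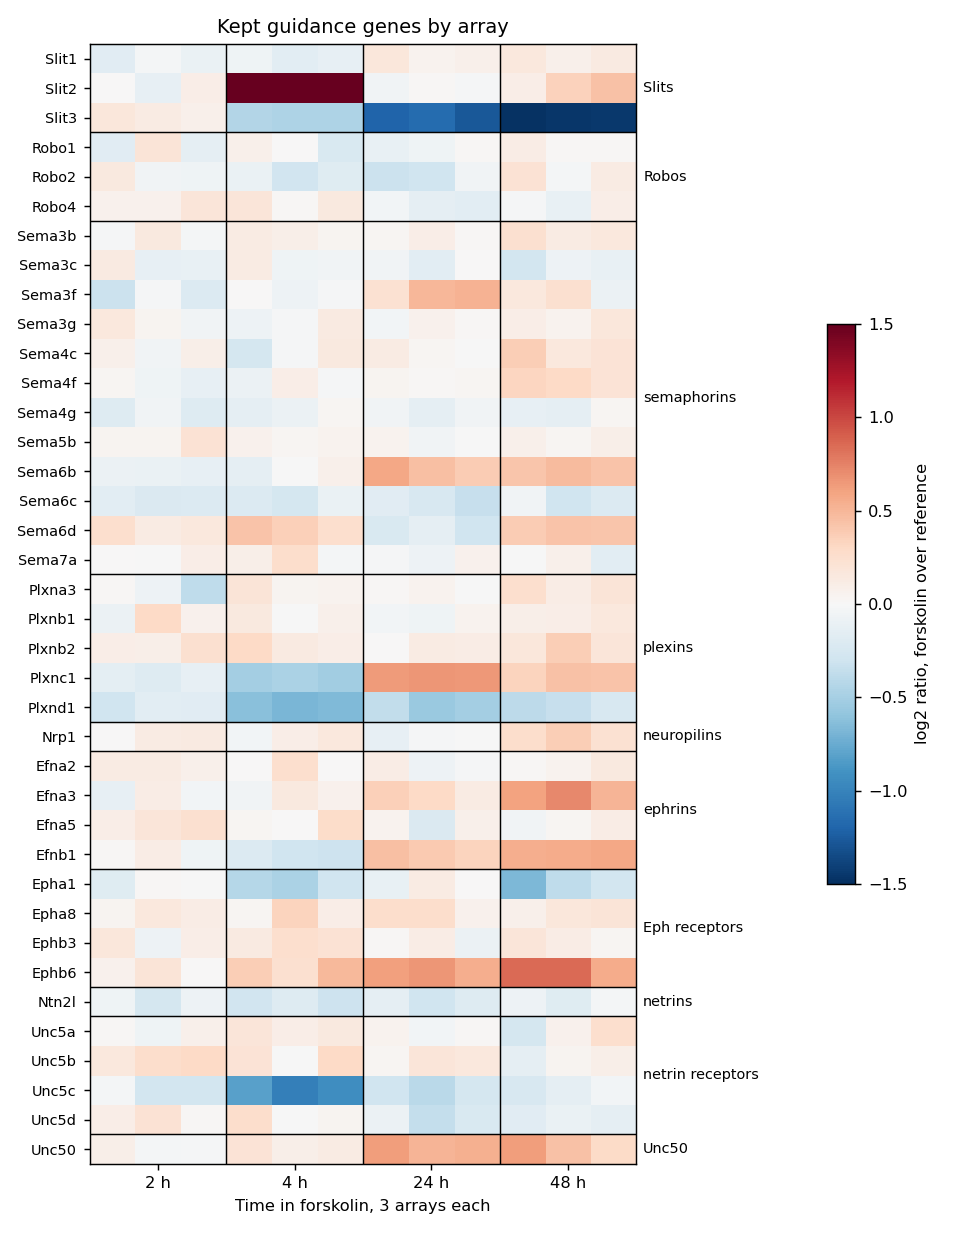
log2 ratio of forskolin over reference (colour, red above and blue below) for the 38 kept guidance genes (rows, by family) on the 12 arrays (columns, 3 for each time). Slit2 at 4 h and Slit3 at 24 and 48 h are the deepest colours, and the late rises of Plxnc1, Efnb1, Efna3, Ephb6 and Sema6b appear on all 3 arrays of 48 h. Efna3 is shown by the probe that rose, and its other kept probe did not rise.

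**Figure D5:**
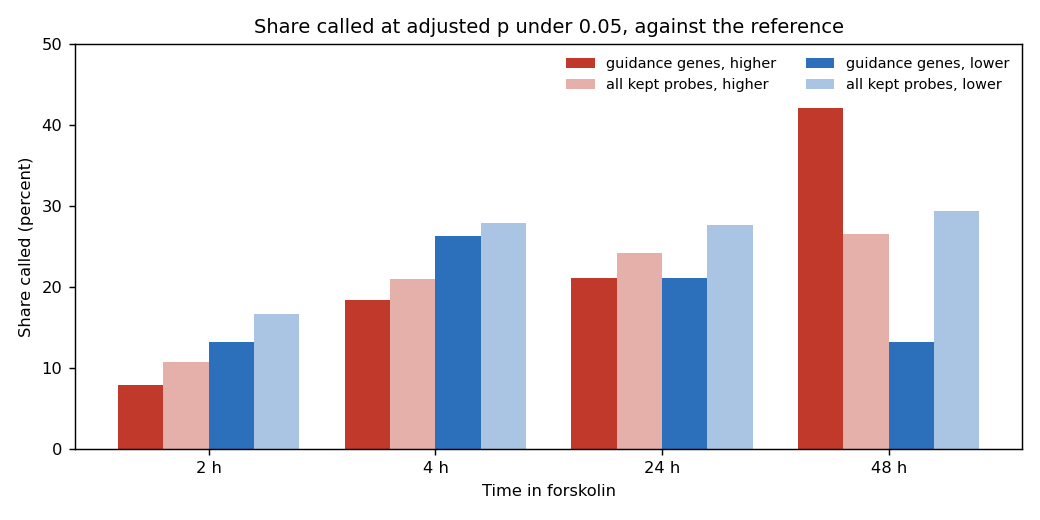
Share called higher (red) and lower (blue) than the reference at a limma adjusted p under 0.05 (y axis, percent) at each time (x axis), for the 38 guidance genes in full colour and all 20630 kept probes in pale colour. Shares run close together except at 48 h, where 16 of the 38 genes were called higher and 5 lower. Of all kept probes 26.5% were called higher there and 29.4% lower. Of the 16, Sema3b, Sema4c, Plxna3 and Plxnb2 cleared background at 48 h in the forskolin channel only, so the filter kept them there through the higher channel.

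A list of 59 proteins that carry guidance signals inside the growth cone was drawn up with earlier results of these data known. Of the 59, 49 were kept. Of these 12 rose and 9 fell at 2 h, 18 and 15 at 4 h, 18 and 8 at 24 h, and 20 and 4 at 48 h. The shares called were 42.9%, 67.3%, 53.1% and 49.0%, beside 27.3%, 48.8%, 51.8% and 55.9% of all kept probes. The medians were 0.04, 0.03, 0.05 and 0.08. The largest late rises were those of Vav3, a guanine nucleotide exchange factor (1.46 ± 0.10 at 24 h and 1.29 ± 0.13 at 48 h, SD, n = 3), and Rnd2, a small GTPase (1.16 ± 0.06 at 48 h). Fes and Rras, a kinase and a GTPase that act with plexins, both rose by 0.88 at 48 h. Fyn, a kinase downstream of several guidance receptors, rose by 0.89 at 24 h, and Vasp, an actin regulator, by 0.69. At 4 h Ptk2, the focal adhesion kinase, fell by 0.74, and the cofilin kinases Limk1 and Limk2 fell by 0.59 and 0.62, while Rnd2 rose by 0.55. The leading rises at 2 h were smaller: Cfl1 (cofilin), Dpysl3, Chn2 and Fyn lay between 0.34 and 0.36. Of these, Cfl1, Dpysl3 and Fyn turned to -0.01, -0.23 and -0.07 without loess.

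A second list, also drawn up with earlier results known, held 48 other guidance cues, receptors and adhesion molecules, of which 30 were kept. Of these 7 rose and 3 fell at 2 h, 9 and 9 at 4 h, 7 and 6 at 24 h, and 14 and 4 at 48 h, or 33.3%, 60%, 43.3% and 60% of them, beside the same 27.3%, 48.8%, 51.8% and 55.9% of all kept probes. The medians were 0.02, 0.01, 0.02 and 0.08. The chemokine receptor Cxcr4 fell, reading -0.89 at 4 h, -1.72 at 24 h and -1.61 at 48 h, while its ligand Cxcl12 rose by 0.39 at 2 h and 0.98 at 4 h. Rtn4, which encodes the growth inhibitor Nogo, rose by 0.65, 0.80, 0.75 and 1.09 over the 4 times. Flrt3, a membrane protein that binds Robo1 and UNC5 receptors, fell by 0.97 at 24 h and 0.87 at 48 h. L1cam, an adhesion molecule of axons, fell by 0.74 at 4 h. Neo1, a receptor for netrins, rose by 0.32 at 2 h and Ptch1, a Hedgehog receptor, fell by 0.27. Lingo1 rose by 0.70 at 48 h. The receptor phosphatase Ptprf rose by 0.71 at 24 h but read -0.20 without loess.

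Cyclic AMP acts on many genes through a promoter element with the letters TGACGTCA. RefSeq promoters on build GRCr8, from 250 bases before to 50 after the start of a gene, were found for 52 members as 53 promoters, since Robo1 has 2. Of these, 32 promoters belong to 31 members with a kept probe. No promoter was found for Slit1, Slit2, Sema3b, Sema3f, Sema4g, Unc5c and Unc5d, so these kept members were not searched. The full element stood in 0 of the 32 promoters, and in 1.8% of all 33469 promoters. Its 5-base part TGACG, on either strand and contained in the full element, stood in 6 of the 32 (18.8%) and in 21.2% of all promoters. The 6 were Efnb1, Ntn3, Sema6d, Sema7a, Slit3 and Unc50. The windows of Slit3, the gene with the largest fall, and Efnb1, a gene with a late rise, are shown from 250 bases before the start up to it, with the 5-base match or its reverse complement in capitals.
Slit3, chr10:20075679-20075928, plus strand: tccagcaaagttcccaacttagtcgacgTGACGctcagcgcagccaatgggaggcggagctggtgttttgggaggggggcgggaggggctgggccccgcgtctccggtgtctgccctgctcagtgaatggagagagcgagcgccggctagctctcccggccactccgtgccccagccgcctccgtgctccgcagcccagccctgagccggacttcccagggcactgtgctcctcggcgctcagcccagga
Efnb1, chrX:68297279-68297528, plus strand: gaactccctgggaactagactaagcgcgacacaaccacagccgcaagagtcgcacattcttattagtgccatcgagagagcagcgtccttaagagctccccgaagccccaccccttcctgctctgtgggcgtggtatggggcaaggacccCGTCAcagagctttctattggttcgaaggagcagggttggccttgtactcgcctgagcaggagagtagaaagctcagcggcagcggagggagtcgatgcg
The match begins 222 bases before the start in Slit3 and 100 bases before it in Efnb1. These are matches of letters, and no binding was measured.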

How the data were processed

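Intensities of 12 arrays were deposited by the authors as Agilent scanner output, extracted with Feature Extraction 9.5.1.1 and annotated on build rn3, per the file headers. The authors' deposited log2 values, made with limma per the submitters' processing notes, run red over green (r = -0.964 to -0.941 against green over red from the scanner files; column medians 0.0067 to 0.0125) and served as an alternative with the sign turned; any further centring is not stated in the sources.

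Mean spot intensities were corrected with normexp (offset 50) and loess within each array, with control spots at weight 0. Outlier-flagged spots were dropped and spots averaged per probe. All 20630 kept probes were fitted with limma 3.58.1 in R 4.3.3 (lmFit and eBayes, 4 time means), adjusted by Benjamini-Hochberg and called at 0.05. The 8 comparisons were each time against the reference, 3 successive steps and an F test. The fit was tested on simulated data. The number of arrays limits the precision.

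Probes took current symbols through RefSeq accessions or names where these matched (20912 of 41012 kept the file's name). Described in full were the 6 largest rises and 6 largest falls among called members at each time with 1 sign on all 3 arrays, and the 12 with the largest range of time means. From the list of growth cone signalling proteins and the list of other guidance cues, up to 4 called genes a time were described. Epha4 and the disagreeing probes were added after their values were seen. The members, lists and markers were chosen with earlier results of these data known. The alternatives were 10 settings and leaving out each array. No table of proteins was used here.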

Additional observations from a re-analysis of the deposited data

Results flagged for a closer look

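In 4 genes the effect had opposite directions at successive times, each called against the reference, and the difference between the times was itself called by limma. Slit3 went from 0.12 at 2 h to -0.45 at 4 h, a difference of -0.57 (adjusted p = 6.7e-06). Efnb1 went from -0.27 at 4 h to 0.39 at 24 h, a difference of 0.66 (adjusted p = 1.1e-06). Plxnc1 went from -0.50 to 0.65 over the same step, a difference of 1.15 (adjusted p = 1.9e-09), though its dimmer probe was not called lower at 4 h. Sema6d went from 0.35 at 4 h to -0.22 at 24 h, a difference of -0.57 (adjusted p = 8.9e-06), and on to 0.41 at 48 h, a difference of 0.63 (adjusted p = 2.2e-05). The arrays of the 2 times did not overlap in any of these. Without loess the directions against the reference were not opposite for Slit3 (-0.36 and -0.92), and Plxnc1 was not called at 24 h (0.02, adjusted p = 0.77). Sema6d was then not called at 4 h (0.12, limma adjusted p = 0.051). All 5 differences between times were called under each of the 10 settings that keep every array. They ranged from -0.61 to -0.56 for Slit3, 0.54 to 1.45 for Efnb1 and 1.10 to 1.16 for Plxnc1. For Sema6d they ranged from -0.83 to -0.49 and from 0.54 to 0.90. With 3 arrays a time, single arrays far from the others were not looked for.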

How the results depend on the processing

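The scaling of the arrays mattered most. Centring each array on its median, without loess, left the dimmest 20% of all kept probes at a median of 0.40 to 0.52 and the brightest 20% at -0.73 to -0.68, and the guidance genes' medians at 0.30 to 0.42. The number called against the reference then rose to 34, 36, 34 and 35 at 2, 4, 24 and 48 h, and fell to 2 for 48 h against 24 h. The share of all kept probes called without loess is not given beside these numbers. Under it these values changed sign: at 2 h Sema6d (-0.0192), Slit3 (-0.3635), Sema4g (0.1702), Cfl1 (-0.0142), Dpysl3 (-0.228) and Fyn (-0.0721); at 4 h Robo2 (0.029); at 24 h Unc50 (-0.0663), Unc5d (0.1642) and Ptprf (-0.203); at 48 h Plxnc1 (-0.2514), Slit1 (-0.1143), Unc50 (-0.1961) and Sema3c (0.3667). Under the other settings no called value of a named gene changed sign, and counts stayed within 1.5 times. Over all settings that keep every array, values of single genes kept direction and call 884 times and lost only the call 36 times. Leaving out 1 array gave 3 to 9 called at 2 h, 13 to 19 at 4 h, 13 to 16 at 24 h and 18 to 22 at 48 h. It gave 6 to 8, 12 to 15 and 6 to 10 for the 3 steps and 18 to 21 for the F test.

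Replicate numbers are also slide numbers. Same-numbered arrays deviated together at r = 0.0586 to 0.479, with 14 of 18 pairs over 0.1 and a median of 0.224, beside -0.214 for differently numbered arrays. Of the 36 differently numbered pairs, 10 passed 0.1. Pairs within replicate 1 ran from 0.340 to 0.479. Among the other replicates, same-numbered pairs ran from 0.0586 to 0.311 and differently numbered pairs from 0.0121 to 0.309. The hint that a slide's arrays deviate together thus rests on replicate 1. With the replicate block 12, 19, 17 and 22 members were called at the 4 times (main 8, 17, 16 and 21), 9, 16 and 10 for the steps and 20 by the F test. Signal near background limits the low members: where 1 channel was not above background, the log2 values are given beside a fold difference, which is not a firm minimum.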
